A study of Arabidopsis thaliana with 48 samples.

Results

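16 genes of Arabidopsis whose RNA was low in every *met1-7* library of an organ are described. A gene was taken when, in leaves or in roots, its lowest value in the 8 Col-0 libraries was at least 1 FPKM and at least 2 times its highest value in the 8 *met1-7* libraries. FPKM are fragments of a gene scaled to its length and to the mapped total of the library. The members were thus selected on their measured FPKM in *met1-7* and Col-0, and 16 of the 32833 genes with a locus tag met the thresholds, after AT1G54040, AT1G60470, *MET1* and *ROS1* had been left out by name. In leaves 8 genes met them and in roots 10, of which 2 met them in both organs. The difference between *met1-7* and Col-0 in the organ in which a gene was taken is therefore a description, with no test, and later comparisons of *elp2-5* with Col-0, or of FT with GC, use libraries that also entered the rule.

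MET1 is the DNA methyltransferase that copies methylation of CG sites onto the new strand after replication. Plants that lack it lose CG methylation across the genome, and many loci that are silent in wild type are then transcribed. The 16 genes go the other way, with less RNA in the mutant. ELP2 is a subunit of Elongator, a complex that works in transcript elongation and in tRNA modification.

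The RNA came from 11-day-old seedlings grown on plates under constant light in the Veggie growth unit, either in spaceflight on the International Space Station (FT) or as a ground control (GC) in the ISS environment simulator at Kennedy Space Center. The lines were *met1-7*, *elp2-5* and Col-0, the last being the wild type in which both mutants were made. Leaves and roots were preserved in RNAlater, and the 12 groups of line, organ and environment held 4 replicates each, 48 libraries in all. By the study's methods a replicate combined a pair of plates, except a *met1-7* FT replicate from a single plate, and leaves and roots came from the same plates, so that the organs are not separate plants. Each mutant was represented by 1 allele. In bulk RNA of this kind, fewer cells of a type and less RNA per cell cannot be told apart.

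The libraries were checked against their labels before the members were described. *FWA* and *SDC*, which methylation keeps silent in wild-type seedlings, summed to between 51.1 and 379 FPKM in *met1-7* leaves, against at most 0.3 FPKM in *elp2-5* and 0.14 FPKM in Col-0 leaves. In roots the sum was 26.1 to 59.2 FPKM in *met1-7*, at most 0.1 FPKM in *elp2-5* and at most 0.12 FPKM in Col-0. *ELP2* RNA was 3.24 to 3.99 FPKM in *elp2-5* leaves and 7.38 to 9.13 FPKM in Col-0 leaves. The *MET1* transcript itself ran from 10.8 to 15.2 FPKM in *met1-7* leaves and from 12.7 to 14.7 FPKM in Col-0 leaves, so its level does not check the label. The 6 photosynthesis markers summed to at least 24460 FPKM in leaves and at most 622 FPKM in roots. Seed storage markers reached 404 FPKM in Col-0 leaf GC replicate 4 and 1.92 FPKM or less in all *met1-7* and *elp2-5* leaf libraries. Read counts cannot be had from FPKM, and the depth of the libraries is unknown.

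All 16 genes were found in the RefSeq annotation of the TAIR10.1 assembly, and the DNA before 6 of them is shown because their data are followed most closely: the pair lowered in both organs, the neighbours AT4G16857 and AT4G16892 with the most CG sites, and the near-identical pair AT5G39160 and *GER2*. Each window holds the 250 bases before the annotated gene start, written 5′ to 3′ on the strand of the gene, with every CG, the dinucleotide whose methylation MET1 maintains, in capitals. All 6 lie on the minus strand. AT4G03935 is a noncoding RNA at chr4:1868783-1869715 (window chr4:1869716-1869965), and *NF-YC12* lies at chr5:15220208-15222524 (window chr5:15222525-15222774). AT4G16857 lies at chr4:9482429-9483913 (window chr4:9483914-9484163), and AT4G16892, a noncoding RNA, at chr4:9506322-9508337 (window chr4:9508338-9508587). AT5G39160 lies at chr5:15679005-15680141 (window chr5:15680142-15680391) and *GER2* at chr5:15692542-15693735 (window chr5:15693736-15693985).
AT4G03935: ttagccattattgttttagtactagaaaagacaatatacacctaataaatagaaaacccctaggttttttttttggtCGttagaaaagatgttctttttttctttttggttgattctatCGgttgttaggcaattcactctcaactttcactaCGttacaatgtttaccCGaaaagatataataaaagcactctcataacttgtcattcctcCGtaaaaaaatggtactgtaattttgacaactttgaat
NF-YC12: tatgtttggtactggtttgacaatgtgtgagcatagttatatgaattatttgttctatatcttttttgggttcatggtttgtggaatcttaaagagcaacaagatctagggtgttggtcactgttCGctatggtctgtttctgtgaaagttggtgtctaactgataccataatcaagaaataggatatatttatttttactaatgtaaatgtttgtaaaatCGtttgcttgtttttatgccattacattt
AT4G16857: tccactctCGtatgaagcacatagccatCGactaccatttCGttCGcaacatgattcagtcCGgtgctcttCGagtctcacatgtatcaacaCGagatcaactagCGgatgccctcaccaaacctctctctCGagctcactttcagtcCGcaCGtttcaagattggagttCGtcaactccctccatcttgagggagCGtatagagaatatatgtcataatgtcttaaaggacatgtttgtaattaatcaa
AT4G16892: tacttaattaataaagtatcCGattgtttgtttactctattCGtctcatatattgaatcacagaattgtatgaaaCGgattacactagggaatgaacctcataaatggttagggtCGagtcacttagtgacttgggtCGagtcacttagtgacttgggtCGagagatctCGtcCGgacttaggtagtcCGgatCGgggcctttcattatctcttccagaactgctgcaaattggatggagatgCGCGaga
AT5G39160: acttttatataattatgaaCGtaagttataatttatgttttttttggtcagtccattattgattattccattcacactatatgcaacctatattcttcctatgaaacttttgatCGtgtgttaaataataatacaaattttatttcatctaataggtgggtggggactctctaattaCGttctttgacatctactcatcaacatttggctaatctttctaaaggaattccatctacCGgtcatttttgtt
GER2: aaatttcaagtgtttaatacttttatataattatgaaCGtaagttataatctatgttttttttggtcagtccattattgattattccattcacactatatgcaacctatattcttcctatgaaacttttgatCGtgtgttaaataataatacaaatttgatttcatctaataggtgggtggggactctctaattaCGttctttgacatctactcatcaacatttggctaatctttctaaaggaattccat

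The number of CG sites differed widely among these windows. AT4G16857 held 13 and AT4G16892 held 12, and only 5.43% and 7.44% of the 19838 expressed genes with a window held at least as many. *NF-YC12* held 2 CG sites, and 88.8% of genes held at least as many. AT4G03935 held 5, AT5G39160 held 4 and *GER2* held 3. Over the 16 members the median was 5.5 CG sites (range 2 to 13), beside a median of 5 (range 0 to 29) over all genes, and their median GC content was 32%, beside 31.2%. The windows of AT5G39160 and *GER2* were the same at 230 of 232 aligned bases (99.1%) when set off by 18 bases. Methylation of these windows was not analysed here.

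The other 10 members lie at these places of the same assembly. On the plus strand are AT1G25141 (chr1:8817678-8818395), *MUB5* (chr1:29284963-29286340), AT2G24945 (chr2:10610833-10612232), AT3G46490 (chr3:17115483-17119790), *ENDO3* (chr4:11480321-11482765) and *ACP5* (chr5:9571185-9572213). On the minus strand are AT2G13550 (chr2:5648329-5649847), AT5G41765 (chr5:16716552-16717558), AT5G42280 (chr5:16905202-16908059) and AT5G45310 (chr5:18359275-18361213). AT2G13550 overlaps AT2G13555 by 504 bases and AT5G42280 overlaps *VAR1* by 93 bases, in both cases on the other strand.

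The members lay mainly on chromosomes 5 and 4. Chromosome 5 carried 7 of the 16 (43.8%), beside 23.3% of the 19926 genes whose 8 Col-0 libraries all reached 1 FPKM in an organ, and chromosome 4 carried 4 (25%), beside 15.2%. Of the others, 2 lay on chromosome 1, 2 on chromosome 2 and 1 on chromosome 3. A stretch of 3.14 Mb of chromosome 5, from *NF-YC12* to AT5G45310, held 6 members and 538 of 19839 expressed genes (2.71%); it was chosen after the positions were seen and carries no test. *MET1* itself is on chromosome 5, 1.58 Mb from AT5G45310, 4.71 Mb from *NF-YC12* and 10.4 Mb from *ACP5*. Whether DNA around the *met1-7* allele differs from that of Col-0 was not tested.

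In the organ where they were taken, the *met1-7* means were a small part of the Col-0 means. The median was 20.1% of Col-0 in leaves (range 0.218% to 24.9%) and 13.6% in roots (range 0.534% to 32.6%). The rule itself was met by 0.046% of the 17400 leaf genes with all 8 Col-0 libraries at or above 1 FPKM. In roots it was met by 0.0585% of 18790 such genes, a count that includes 1 of the genes left out by name. Just inside the threshold in leaves stood AT5G45310, with a lowest Col-0 value 2.01 times the highest *met1-7* value, and *NF-YC12*, with 2.08 times. Just outside stood AT1G06837 at 1.93 times and AT3G28500 at 1.93 times. In roots AT5G41765 (2.02 times) and *ENDO3* (2.096 times) stood just inside, and AT4G16857 (1.97 times) and *MIR5642a* (1.89 times) just outside.

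*NF-YC12* (AT5G38140) encodes a C subunit of nuclear factor Y, a histone-fold protein family that forms trimeric transcription factors. It met the rule in both organs. In leaves its values were 4.99, 2.05, 3.65 and 5.33 FPKM in *met1-7* FT, 2.7, 4.46, 3.53 and 3.02 FPKM in *met1-7* GC, 12.77, 12.36, 12.9 and 11.47 FPKM in *elp2-5* FT, 9.77, 10.95, 10.04 and 13.14 FPKM in *elp2-5* GC, 17.34, 14.47, 13.06 and 15.21 FPKM in Col-0 FT and 11.09, 17.19, 12.59 and 18.35 FPKM in Col-0 GC. The *elp2-5* and Col-0 libraries overlapped and the *met1-7* libraries lay apart below both. In roots the 8 *met1-7* libraries ran from 0.42 to 1.16 FPKM (median 0.73), the *elp2-5* libraries from 6.11 to 10.59 FPKM (median 7.49) and the Col-0 libraries from 4.72 to 9.44 FPKM (median 7.31). The *met1-7* mean was 9.71% of Col-0 in roots and 24.9% in leaves.

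The next gene upstream of *NF-YC12*, *PMI15* (AT5G38150), is annotated 342 bases away on the same strand and is not a member. It is named for plastid movement and is listed as a pseudogene in this assembly. Its FPKM in leaves were 12.25 to 19.59 in *met1-7* (median 16.2), 20.83 to 26.37 in *elp2-5* (median 23.8) and 21.9 to 46.27 in Col-0 (median 32.6). The *met1-7* libraries were the lowest, with no overlap with Col-0. It was a differentially expressed gene (DEG) in FT leaves, with a log2 fold change for *met1-7* vs Col-0 of −1.19 ± 0.12 (SE) and an adjusted p of 5.78e-07, and in FT roots, at −1.37 ± 0.10 and 2.40e-09 (limma, n = 4 against 4). To be called a DEG, a gene needed a Benjamini-Hochberg adjusted p below 0.05, a change of 2-fold or more on the log2(FPKM + 0.5) scale and FPKM above 0 in at least 1 library of both groups. In GC the fall was under 2-fold, with log2 fold changes of −0.76 in leaves and −0.91 in roots.

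AT5G41765 and AT5G42280 were taken in roots. AT5G41765 belongs to the storekeeper-related proteins, a plant family of transcriptional regulators. Its root values were 1.24, 0.83, 1.28 and 1.33 FPKM in *met1-7* FT, 0.6, 0.47, 1.14 and 1.45 FPKM in *met1-7* GC, 7.85, 8.93, 7.54 and 7.6 FPKM in *elp2-5* FT, 7.5, 7.92, 7.44 and 6.82 FPKM in *elp2-5* GC, 4.13, 4.37, 3.67 and 4.03 FPKM in Col-0 FT and 3.16, 2.93, 3.43 and 3.84 FPKM in Col-0 GC. The 3 lines did not overlap, with *met1-7* lowest, Col-0 between and *elp2-5* highest. AT5G42280, of the cysteine- and histidine-rich C1 domain family, averaged 0.576 ± 0.349 FPKM in *met1-7* roots, 4.44 ± 0.365 FPKM in *elp2-5* roots and 4.01 ± 0.302 FPKM in Col-0 roots (SD, n = 8 each). Its *elp2-5* and Col-0 libraries overlapped.

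AT4G16857 and AT4G16892 lie 22.4 kb apart in a cluster of disease resistance genes on chromosome 4, with 3 annotated genes between them. AT4G16857 is annotated with the TIR-NBS-LRR class, the intracellular receptors that plants use to detect pathogens, and overlaps AT4G16855 by 132 bases on the other strand. In leaves it had 0.05, 0, 0.04 and 0 FPKM in *met1-7* FT and 0.04, 0, 0.04 and 0 FPKM in *met1-7* GC, 4.16, 2.56, 2.77 and 2.7 FPKM in *elp2-5* FT, 2.61, 3.48, 2.58 and 2.65 FPKM in *elp2-5* GC, 10.23, 1.5, 6.7 and 7.55 FPKM in Col-0 FT and 11.94, 13.98, 9.9 and 16.29 FPKM in Col-0 GC. It was near 0 in all 8 *met1-7* libraries, and 1 Col-0 library, FT replicate 2, stood below the *elp2-5* libraries while the other 7 stood above them. AT4G16892 was lower in level: 0.19 to 0.47 FPKM in *met1-7* leaves (median 0.31), 0.95 to 1.71 FPKM in *elp2-5* leaves (median 1.32) and 1.09 to 2.18 FPKM in Col-0 leaves (median 1.35). Its *elp2-5* and Col-0 libraries overlapped.

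The resistance genes next to them were no DEGs in *met1-7* leaves. *RPP4*, the next gene upstream of AT4G16857, had medians of 27.0 FPKM in *met1-7* leaves, 17.1 FPKM in *elp2-5* leaves and 22.5 FPKM in Col-0 leaves. *SNC1*, the next gene downstream of AT4G16892, had 57.2 ± 3.20 FPKM in *met1-7* FT leaves and 44.9 ± 11.7 FPKM in Col-0 FT leaves, and 58.0 ± 1.34 FPKM in *met1-7* GC leaves and 31.3 ± 2.44 FPKM in Col-0 GC leaves (SD, n = 4 each). Its log2 fold change was 0.88 ± 0.11 (SE) in GC, with an adjusted p of 9.44e-06 (limma), a rise of under 2-fold. AT4G16900, a TIR-NBS-LRR gene 3521 bases upstream of AT4G16892, was lower by less than 2-fold, with 5.17 FPKM in *met1-7* FT leaves against 7.31 FPKM in Col-0 FT leaves (log2 fold change −0.46 ± 0.07, adjusted p 0.000283) and 4.94 FPKM in *met1-7* GC leaves against 6.97 FPKM in Col-0 GC leaves (−0.45 ± 0.07, adjusted p 0.000216, limma). *RPP5*, whose transcript matched AT4G16857 at 89.3% of aligned bases, was no DEG in leaves in either environment. A further member of the class, AT4G16920, was a DEG in *met1-7* GC leaves, with 0.945 FPKM against 2.59 FPKM in Col-0 GC leaves (log2 fold change −1.09 ± 0.23, adjusted p 0.00229, limma). It was lower still in *elp2-5*, with 0.373 FPKM in FT leaves (−1.22 ± 0.23, adjusted p 0.000151) and 0.34 FPKM in GC leaves (−1.88 ± 0.23, adjusted p 1.10e-06, limma).

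AT4G03935, the noncoding RNA lowered in both organs, had 1.5, 1.98, 2.25 and 2.09 FPKM in *met1-7* FT leaves and 0.73, 1.58, 1.23 and 2.01 FPKM in *met1-7* GC leaves. The *elp2-5* leaves ran from 6.11 to 11.29 FPKM (median 8.36) and the Col-0 leaves from 5.25 to 8.97 FPKM (median 6.98), with much overlap. In roots the *met1-7* libraries lay between 0.22 and 1.08 FPKM (median 0.755), the *elp2-5* libraries between 2.02 and 6.07 FPKM (median 3.41) and the Col-0 libraries between 2.55 and 4.91 FPKM (median 3.96). A similar transcript, AT1G04857, matches it at 97.5% over 203 bases and was listed at 0 FPKM in leaves of *met1-7* and Col-0. A further one, AT3G27990, matches AT4G03935 at 93.1% over 405 bases, and the division of reads among these loci is uncertain.

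AT5G39160 and *GER2* (AT5G39190) encode germin-like proteins of the cupin fold, which are secreted to the cell wall. They lie 12.4 kb apart with 2 genes between them, and their transcripts are 99.7% identical over 1030 bases, so that the division of reads between them is uncertain. *GER2* had 3.13, 0.58, 3.52 and 1.45 FPKM in *met1-7* FT roots, 2.24, 3.81, 0.71 and 3.02 FPKM in *met1-7* GC roots, 18.49, 23.07, 26.17 and 15.33 FPKM in *elp2-5* FT roots, 21.91, 35.85, 30.02 and 30.38 FPKM in *elp2-5* GC roots, 12.86, 12.52, 14.44 and 18.64 FPKM in Col-0 FT roots and 16.77, 17.1, 18.58 and 33.68 FPKM in Col-0 GC roots. No *met1-7* library reached the lowest of the other lines, and *elp2-5* and Col-0 overlapped. AT5G39160 ran from 0.24 to 1.22 FPKM in *met1-7* roots (median 0.565), from 6.88 to 14.97 FPKM in *elp2-5* roots (median 9.49) and from 4.19 to 17.97 FPKM in Col-0 roots (median 6.47). The sum of both genes does not depend on how their shared reads were divided, and it was 2.96 ± 1.38 FPKM in *met1-7* roots, 35.2 ± 9.39 FPKM in *elp2-5* roots and 25.4 ± 11.2 FPKM in Col-0 roots (SD, n = 8 each). *GER2* made up a median of 82.8% of that sum in *met1-7* (range 38.4% to 90.3%), 71.3% in *elp2-5* (69% to 74%) and 72.7% in Col-0 (65.2% to 76.4%).

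Of 5 other germin-like genes of the same cluster, chosen for description after their values were seen, 4 were DEGs lower in *met1-7* roots in at least 1 environment. AT5G39180, a cupin gene 8070 bases downstream of *GER2*, is not among the 5, so this is no count over the whole cluster. Over all 31 genes tested in roots that resembled a member by sequence, with members that resemble each other among them, 5 fell in FT, beside 0.352% of all genes tested, and 8 fell in GC, beside 0.61%. The genes counted include AT5G39160 and *GER2*, whose low *met1-7* root values the rule had fixed, and AT4G16857, a member taken in leaves. They also include AT1G77880, which matches *MUB5* on the other strand, where the genes overlap. The counts are therefore no measure of relatives apart from the members. AT5G39130 had 0.405 FPKM in *met1-7* FT roots against 1.42 FPKM in Col-0 FT roots, and 0.25 FPKM in *met1-7* GC roots against 2.56 FPKM in Col-0 GC roots. It fell as a DEG in both environments, with log2 fold changes of −1.09 ± 0.25 (SE, adjusted p 0.00938) in FT and −1.95 ± 0.25 (adjusted p 1.29e-05) in GC (limma). *GLP6*, AT5G39110 and AT5G39120 fell in GC only by this call, with log2 fold changes of −2.54, −1.34 and −1.32 and adjusted p-values of 0.0241, 0.0283 and 0.0244 (limma), and AT5G39150 was a DEG in neither environment. A difference in these falls between FT and GC did not pass for any of them. For the flight response of *met1-7* vs Col-0, 0 of 21000 root genes had an adjusted p under 0.05 (limma interaction). Col-0 root GC replicate 4 was the highest Col-0 library of all of these genes except *GLP6*, as the plot of the cluster shows.

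**Figure D1:**
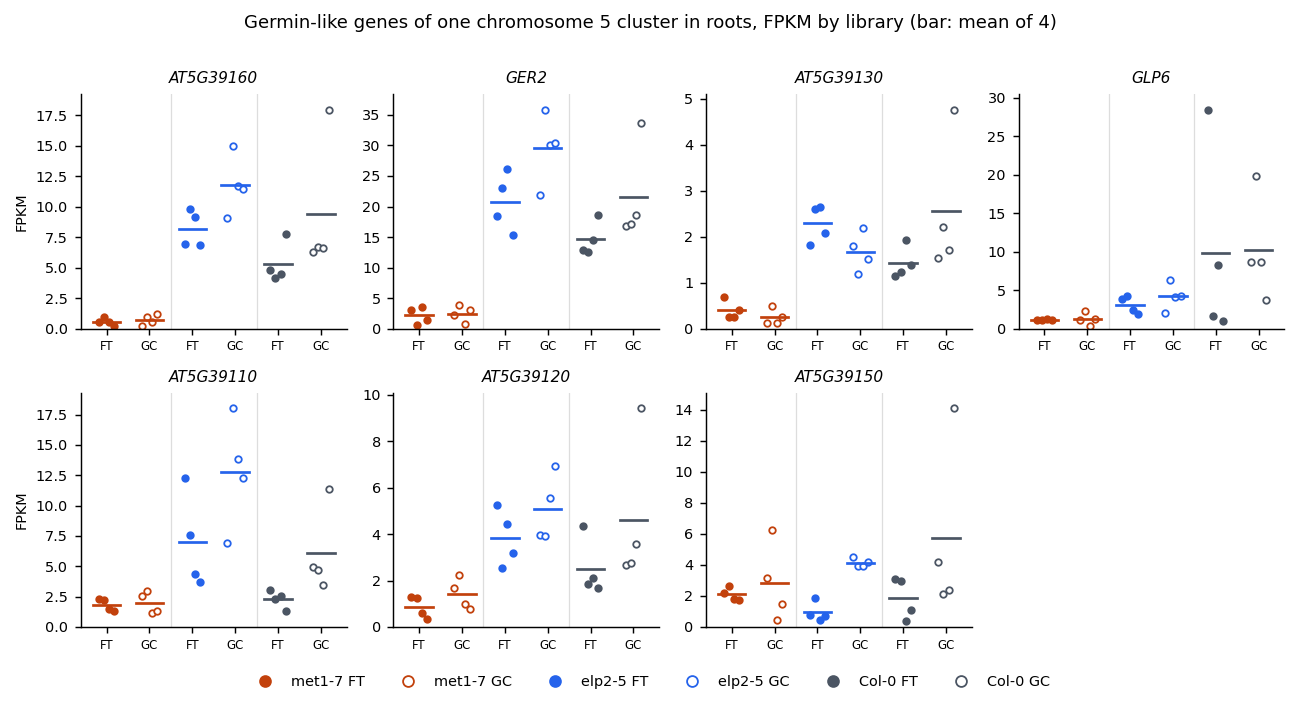
FPKM of 7 germin-like genes of chromosome 5 in root libraries, with 1 panel a gene, *met1-7*, *elp2-5* and Col-0 from left to right and FT (filled) left of GC (open) in each; points are libraries and bars are means of 4. *GER2* is between 0.58 and 3.81 FPKM in *met1-7*, between 15.33 and 35.85 FPKM in *elp2-5* and between 12.52 and 33.68 FPKM in Col-0.

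Enzymes of nucleic acid, lipid and small-molecule metabolism made up the next group. *ENDO3* (AT4G21590) encodes an endonuclease of the family that cuts single-stranded nucleic acids. It averaged 2.62 ± 0.683 FPKM in *met1-7* roots, 7.47 ± 0.622 FPKM in *elp2-5* roots and 8.04 ± 0.517 FPKM in Col-0 roots (SD, n = 8 each), and its *elp2-5* and Col-0 libraries overlapped. *ENDO4*, 141 bases upstream and 81.8% identical where aligned, was no DEG in *met1-7*. AT3G46490, a 2-oxoglutarate and iron dependent oxygenase, had the highest Col-0 level in leaves, with 6.15 ± 0.951 FPKM in *met1-7*, 19.7 ± 3.78 FPKM in *elp2-5* and 25.0 ± 5.39 FPKM in Col-0 (SD, n = 8 each).

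*ACP5* (AT5G27200) encodes an acyl carrier protein, the protein that holds the growing chain in fatty acid synthesis. Its root values were 0.8, 0.34, 1.01 and 0.48 FPKM in *met1-7* FT, 0.9, 1.14, 0.12 and 0.61 FPKM in *met1-7* GC, 3.78, 1.5, 2.29 and 1.57 FPKM in *elp2-5* FT, 3.17, 3.98, 4.69 and 3.66 FPKM in *elp2-5* GC, 22.01, 8.24, 10.24 and 6.78 FPKM in Col-0 FT and 26.66, 28.03, 25.17 and 2.91 FPKM in Col-0 GC. Col-0 was high in 7 libraries and 2.91 FPKM in GC replicate 4, which fell among the *elp2-5* values, while *met1-7* lay below both lines. Its relatives *ACP1* to *ACP4* were no DEGs in *met1-7*. *ACP5* overlaps *Cand8* (AT5G27210) by 148 bases on the other strand.

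The ubiquitin-related members were *MUB5* and AT1G25141. *MUB5* (AT1G77870) encodes a ubiquitin-fold protein anchored to the plasma membrane. Its leaf values were 0.44, 0.04, 0.63 and 0.62 FPKM in *met1-7* FT, 0.08, 0.1, 0.3 and 0.15 FPKM in *met1-7* GC, 2.52, 3.03, 3.01 and 2.93 FPKM in *elp2-5* FT, 1.86, 1.64, 1.9 and 2.13 FPKM in *elp2-5* GC, 3.43, 3.33, 3.78 and 3.95 FPKM in Col-0 FT and 2.51, 2.47, 2.81 and 3.14 FPKM in Col-0 GC. *met1-7* was lowest throughout, and within each environment *elp2-5* lay below Col-0. AT1G25141, of the F-box associated ubiquitination effector family, was listed at 0 in 7 of 8 *met1-7* root libraries and at 0.09 FPKM in the other, with 0.93 to 2.95 FPKM in *elp2-5* (median 1.89) and 1.04 to 3.38 FPKM in Col-0 (median 2.05). Its transcript has 4 near-identical relatives that were not analysed here. AT1G25209, AT1G25053 and AT1G24792 match it at 100% over 718 bases, so that the division of reads among these loci is uncertain.

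A kelch-repeat gene, AT1G77880, overlaps *MUB5* by 439 bases on the other strand, and reads of the overlap can be told apart only if the counting used strand, which is not given in the sources used here. In roots, where *MUB5* was at most 0.12 FPKM in *met1-7*, 0.22 FPKM in *elp2-5* and 0.83 FPKM in Col-0, AT1G77880 had 0 to 0.58 FPKM in *met1-7* (median 0.225), 3.85 to 8.22 FPKM in *elp2-5* (median 6.49) and 0.7 to 4.06 FPKM in Col-0 (median 2.39). It fell in *met1-7* vs Col-0 roots in FT (log2 fold change −1.87 ± 0.30, adjusted p 0.000283) and in GC (−1.73 ± 0.30, adjusted p 0.0007), and rose in *elp2-5* vs Col-0 roots in FT (1.24 ± 0.30, adjusted p 0.00253) and in GC (1.49 ± 0.30, adjusted p 0.000509, all limma).

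Genes with little known function completed the members. AT2G13550 averaged 0.698 ± 0.324 FPKM in *met1-7* leaves, 8.34 ± 2.27 FPKM in *elp2-5* leaves and 4.47 ± 0.684 FPKM in Col-0 leaves (SD, n = 8 each), and every *elp2-5* leaf library exceeded every Col-0 leaf library. AT2G24945, taken in roots, averaged 3.98 ± 0.832 FPKM in *met1-7*, 13.2 ± 1.59 FPKM in *elp2-5* and 13.0 ± 1.25 FPKM in Col-0 (SD, n = 8 each), with *elp2-5* and Col-0 overlapping. A transcript 98% identical to it, AT4G36925, was at 0.223 FPKM in *met1-7* FT leaves and 0.0225 FPKM in Col-0 FT leaves. Another, AT3G26800, matches AT2G24945 at 95.7% over 606 bases, and the division of reads among these loci is uncertain. AT5G45310, annotated as a coiled-coil protein, averaged 0.453 ± 0.200 FPKM in *met1-7* leaves, 1.34 ± 0.232 FPKM in *elp2-5* leaves and 2.27 ± 0.336 FPKM in Col-0 leaves (SD, n = 8 each), and its *elp2-5* and Col-0 ranges overlapped only between 1.61 and 1.82 FPKM.

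**Figure D2:**
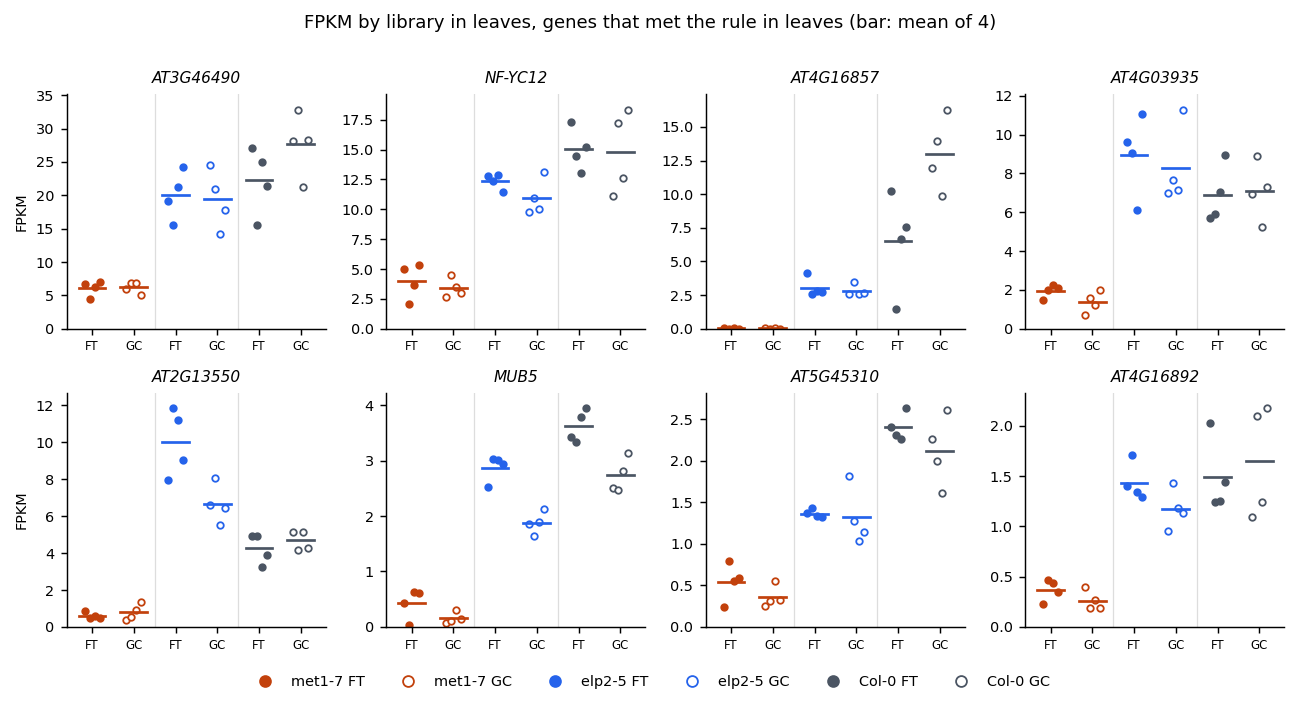
FPKM of the 8 genes taken in leaves, with 1 panel a gene, *met1-7*, *elp2-5* and Col-0 from left to right and FT (filled) left of GC (open) in each; points are libraries and bars are means of 4. All *met1-7* points lie below all *elp2-5* and Col-0 points in each panel, and AT2G13550 reaches 11.86 FPKM in *elp2-5*, above the Col-0 maximum of 5.16 FPKM.

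**Figure D3:**
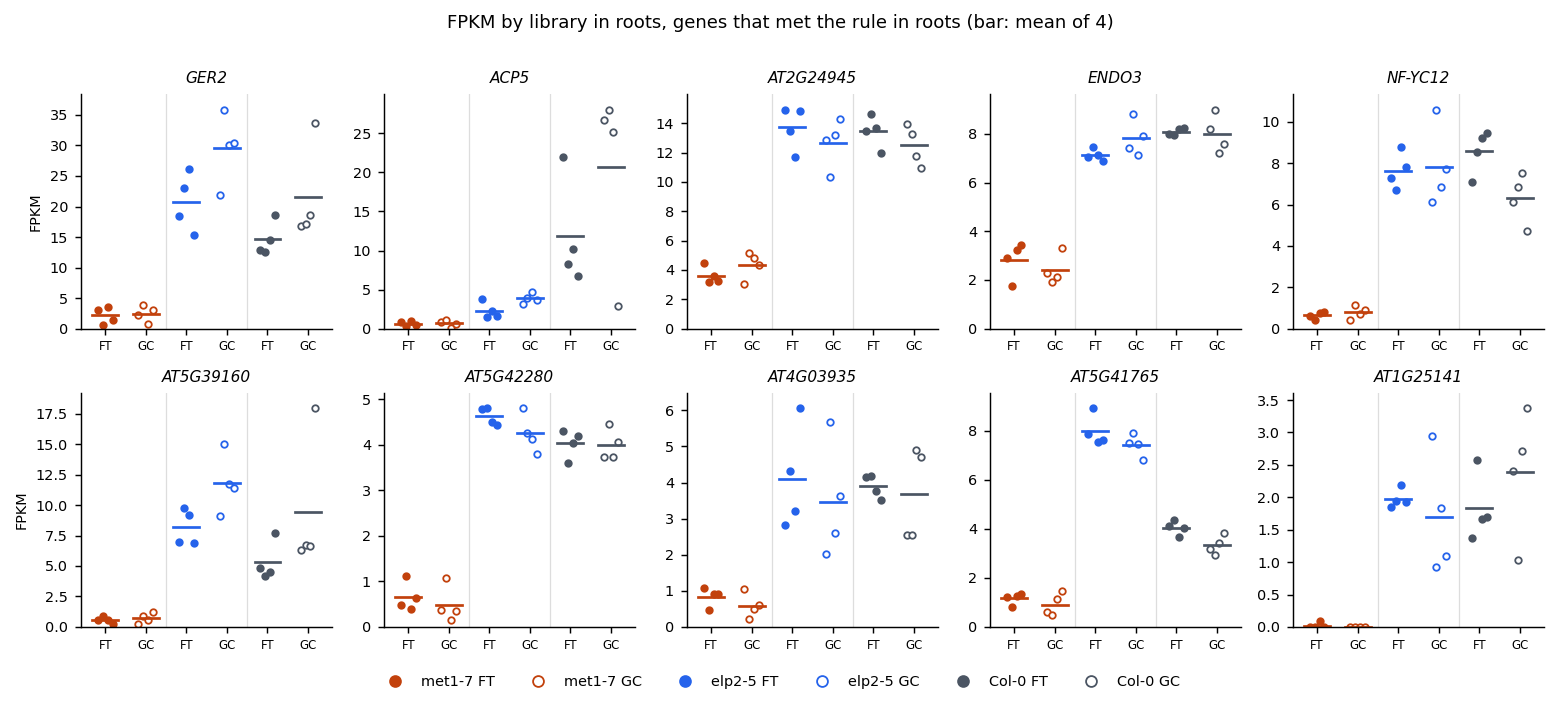
FPKM of the 10 genes taken in roots, drawn in the same way. All *met1-7* points lie below all *elp2-5* and Col-0 points in each panel, and *ACP5* is at most 4.69 FPKM in *elp2-5* while 7 of 8 Col-0 points lie at 6.78 FPKM or above.

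The neighbour downstream of AT2G13550, AT2G13547, ran the other way. It had 3.46 to 10.42 FPKM in *met1-7* leaves (median 5.51), at most 0.21 FPKM in *elp2-5* leaves and at most 0.12 FPKM in Col-0 leaves. It rose with a log2 fold change for *met1-7* vs Col-0 of 3.75 ± 0.20 in FT leaves (adjusted p 6.26e-12) and 3.29 ± 0.20 in GC leaves (adjusted p 8.01e-11, limma). In roots it had 4.39 to 15.16 FPKM in *met1-7* and was listed at 0 in all 8 Col-0 libraries. Among the 37 overlapping or next neighbours of the members, 20 were tested in leaves and 23 in roots. For *met1-7* vs Col-0, 1 fell and 2 rose in FT leaves, where 0.453% of all 19877 genes tested fell and 0.639% rose as DEGs, and 2 rose in GC leaves, where 0.659% of all genes rose. In roots 2 fell in FT, where 0.352% of all 21000 genes fell, and 1 fell in GC, where 0.61% did. The count that rose as DEGs in roots was 0 in both environments, beside 0.571% of all genes in FT and 0.533% in GC, and 9 neighbours in FT and 8 in GC had an unadjusted p under 0.05 in either direction, beside 18.9% and 21.7% of all genes (limma). AT2G13547 could not be called there, because no Col-0 root library was above 0. AT1G25112, 1715 bases upstream of AT1G25141, averaged 3.36 FPKM in *met1-7* GC leaves and 0.01 FPKM in Col-0 GC leaves and rose as a DEG (log2 fold change 2.86), and AT4G03930, 706 bases upstream of AT4G03935, averaged 1.42 FPKM in *met1-7* FT leaves and 0.195 FPKM in Col-0 FT leaves (1.47 ± 0.16, adjusted p 1.59e-06, limma).

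For the genes taken in a single organ, *met1-7* and Col-0 were also compared in the other organ. They had missed the rule there, so the values of the other organ also shaped these sets. Of the 8 genes taken only in roots, 2 fell as DEGs in FT leaves, beside 0.453% of all genes tested, and 4 fell in GC leaves, beside 0.81% of all genes tested. *ACP5*, among the 4, had passed the filter on low values in leaves only through Col-0. The other genes of the 4, *GER2*, AT1G25141 and AT5G42280, also had 0 *met1-7* leaf libraries at 1 FPKM and passed it only through *elp2-5* and Col-0 libraries. The shares of all genes are therefore no like comparison for these counts. The 2 in FT, *GER2* and AT1G25141, both have near-identical transcripts, and the counts were 0 in FT and 1 in GC when only the libraries compared were fitted, and 1 in each at a pseudocount of 1 FPKM. Of the 6 genes taken only in leaves, 3 could be tested in roots, and 2 of them fell as DEGs in FT, beside 0.352% of all genes, and the same 2 in GC, beside 0.61%. Both *met1-7* organs share plates, so these are not separate plants.

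*GER2* and AT1G25141 fell in leaves in both environments. The leaf values of *GER2* were 0.39, 0.12, 0.44 and 0.15 FPKM in *met1-7* FT, 0.09, 0.07, 0 and 0 FPKM in *met1-7* GC, 0.75, 3.08, 2.33 and 2.13 FPKM in Col-0 FT and 0.87, 0.74, 2.03 and 1.31 FPKM in Col-0 GC, without overlap. The log2 fold change was −1.66 ± 0.25 (SE) in FT, with an adjusted p of 0.000172, and −1.63 ± 0.25 in GC, with an adjusted p of 0.000141 (limma, n = 4 against 4). AT1G25141 had at most 0.1 FPKM in *met1-7* leaves and 0.23 to 1.12 FPKM in Col-0 leaves, and fell by 1.31 ± 0.24 on the log2 scale in FT (adjusted p 0.00114) and by 1.08 ± 0.24 in GC (adjusted p 0.00362, limma). Without Col-0 leaf GC replicate 4 it was no DEG in GC, with a fall under 2-fold (adjusted p 0.0187, limma). Without *met1-7* leaf GC replicate 3 or *met1-7* leaf FT replicate 2, every remaining *met1-7* library of that group was at 0. It could then not be called, although the adjusted p was 0.0062 in GC and 0.00233 in FT (limma).

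AT5G42280 had 0.08 to 0.82 FPKM in *met1-7* leaves (median 0.195) and 0.85 to 1.34 FPKM in Col-0 leaves (median 1.10). It fell as a DEG in GC (log2 fold change −1.32, adjusted p 5.04e-05), and by less than 2-fold in FT (−0.92 ± 0.19, adjusted p 0.00385, limma). *ACP5* fell as a DEG in GC leaves (−1.39 ± 0.30, adjusted p 0.00335) and did not pass in FT leaves (−0.91 ± 0.30, adjusted p 0.0711, limma); it passed the filter on low values only through 6 Col-0 leaf libraries, so a difference there was built in. AT2G24945 fell by less than 2-fold in both environments, with 1.22 to 1.98 FPKM in *met1-7* leaves and 2.45 to 4.49 FPKM in Col-0 leaves. Its log2 fold changes were −0.90 ± 0.14 in FT (adjusted p 0.000184) and −0.91 in GC (adjusted p 0.000117, limma).

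AT5G39160, AT5G41765 and *ENDO3* did not pass in leaves. *ENDO3* had 1.14 to 2.0 FPKM in *met1-7* leaves, 1.08 to 2.1 FPKM in *elp2-5* leaves and 1.51 to 2.3 FPKM in Col-0 leaves, with all lines overlapping. Its log2 fold changes for *met1-7* vs Col-0 were −0.18 in FT (adjusted p 0.573) and −0.17 in GC (adjusted p 0.525, limma). AT5G39160 had log2 fold changes of −1.02 ± 0.43 in FT (adjusted p 0.16) and 0.13 in GC (adjusted p 0.873), and AT5G41765, at 0.29 FPKM or less in every *met1-7* and Col-0 leaf library, had −0.43 in FT (adjusted p 0.202) and 0.01 in GC (adjusted p 0.982, limma).

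Of the genes taken in leaves, AT2G13550 was more abundant in roots than in leaves. It had 5.79, 4.43, 5.02 and 8.1 FPKM in *met1-7* FT roots, 8.0, 6.97, 8.59 and 10.85 FPKM in *met1-7* GC roots, 16.76, 20.92, 13.73 and 22.29 FPKM in Col-0 FT roots and 20.85, 20.01, 20.74 and 17.29 FPKM in Col-0 GC roots. The lines did not overlap, and the log2 fold change was −1.59 ± 0.17 in FT (adjusted p 8.04e-07) and −1.17 ± 0.17 in GC (adjusted p 8.19e-05, limma). AT4G16857 ran from 0.72 to 1.18 FPKM in *met1-7* roots and from 2.32 to 3.87 FPKM in Col-0 roots, just outside the rule, and fell by 1.29 ± 0.13 on the log2 scale in FT (adjusted p 3.17e-07) and by 1.34 ± 0.13 in GC (adjusted p 1.59e-07, limma). Its *met1-7* level was thus higher in roots, with a mean of 0.946 FPKM, than in leaves, with a mean of 0.0213 FPKM, while Col-0 had 3.12 FPKM in roots and 9.76 FPKM in leaves.

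AT3G46490 showed no fall in roots. It had 1.72 to 2.58 FPKM in *met1-7* (median 2.24), 0.39 to 0.95 FPKM in *elp2-5* (median 0.81) and 1.03 to 3.03 FPKM in Col-0 (median 1.78), with log2 fold changes for *met1-7* vs Col-0 of 0.22 ± 0.21 in FT (adjusted p 0.636) and 0.28 in GC (adjusted p 0.496, limma). *MUB5*, AT4G16892 and AT5G45310 were below the filter on low values in roots. Fitted without the filter, AT4G16892 fell as a DEG in both environments, by 1.17 ± 0.15 on the log2 scale in FT (adjusted p 1.47e-05) and by 1.26 ± 0.15 in GC (adjusted p 5.22e-06, limma), with 0 to 0.14 FPKM in *met1-7* roots and 0.44 to 1.24 FPKM in Col-0 roots. *MUB5* and AT5G45310 were no DEGs in that fit.

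**Figure D4:**
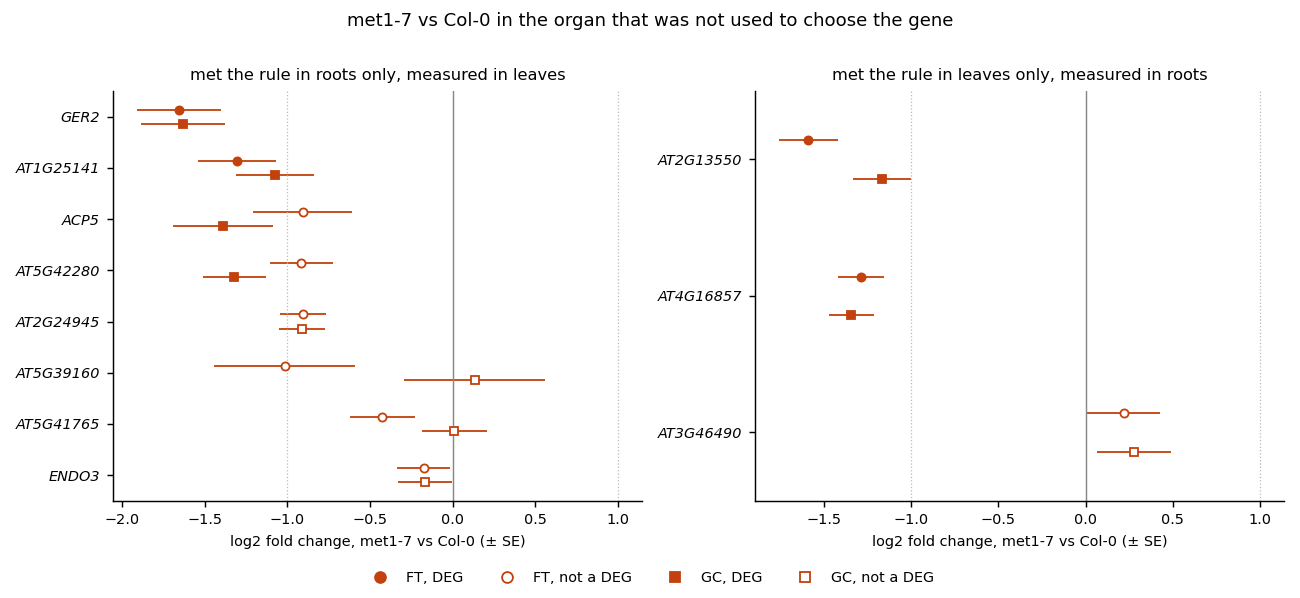
Log2 fold change of *met1-7* vs Col-0 (x axis, ± SE) for genes taken only in roots, measured in leaves (left), and for genes taken only in leaves and tested in roots (right), with FT as circles above GC as squares; filled symbols are DEGs and dotted lines mark a 2-fold change. *GER2* lies at −1.66 in FT and −1.63 in GC, and AT3G46490 lies above 0 in both.

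The organs also differed in the level of the members in wild type. In Col-0, AT5G41765 was 30.2 times, *ACP5* 14.8 times, *GER2* 10.9 times and AT5G39160 10.4 times as high in roots as in leaves by their mean FPKM. AT3G46490 was 13.7 times and *MUB5* 9.01 times as high in leaves as in roots. The genes taken in both organs were *NF-YC12*, with 14.9 FPKM in leaves and 7.44 FPKM in roots, and AT4G03935, with 7.01 and 3.79 FPKM. The tables of the organs were normalized separately, so these ratios carry no test.

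In *elp2-5* the libraries of most members overlapped those of Col-0. Every *elp2-5* library exceeded the highest *met1-7* library for 8 of 8 members taken in leaves, beside 17.3% of the 17400 expressed leaf genes, and for 10 of 10 taken in roots, beside 7.32% of the 18790 expressed root genes; the rule had fixed the *met1-7* values as low. All 8 *elp2-5* libraries exceeded all 8 Col-0 libraries for 1 of these 8 members in leaves, AT2G13550, beside 17.8% of expressed genes, and for 1 of 10 in roots, AT5G41765, beside 6.88%. All 8 lay below Col-0 for 0 of 8 members in leaves, beside 6.57% of expressed genes, and for 0 of 10 in roots, beside 8.69%. The *elp2-5* and Col-0 ranges overlapped for the other 7 in leaves and the other 9 in roots.

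Tested against the same Col-0 libraries that the rule had used, the members moved in both directions. In leaves all 16 members were tested: 1 fell and 2 rose in FT, beside 1.45% and 4.49% of all genes, and 2 fell and 3 rose in GC, beside 1.32% and 4.19% of all genes. *ACP5*, the fall in FT and one of those in GC, passed the filter only through Col-0, and AT5G41765, one of the rises in GC, only through *elp2-5*, so both had to differ. Without them, of 14 members 0 fell and 2 rose in FT, and 1 fell and 2 rose in GC, with 5 members in FT and 9 in GC at an unadjusted p under 0.05, beside 56.2% and 57.1% of all genes (limma). The 14 still include AT5G39160, one of the rises in GC. It reached 1 FPKM in 7 *elp2-5*, 2 Col-0 and 1 *met1-7* leaf libraries, so it passed the filter only with the help of *elp2-5*. The same holds for AT1G25141, with 6 *elp2-5*, 1 Col-0 and 0 *met1-7* leaf libraries at 1 FPKM, which was no DEG. In roots 13 were tested: 1 fell in FT and 1 fell in GC, beside 2.12% and 1.96% of all genes, and 1 rose in GC, beside 1.78%. For FT roots the count of members that rose as DEGs was 0, beside 1.86% of all genes, and 1 member was higher at an unadjusted p under 0.05 (limma). The median log2 fold change of the members was 0.13 in FT and −0.02 in GC leaves, beside 0.12 and 0.14 over all genes tested, and 0.01 in FT and −0.03 in GC roots, beside −0.02 in FT and −0.0042 in GC over all genes.

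*ACP5* was the member that fell in *elp2-5* in both organs and both environments. In roots, where the values of each library were given with the roots, its log2 fold change for *elp2-5* vs Col-0 was −2.07 ± 0.52 (SE) in FT (adjusted p 0.00384) and −1.90 ± 0.52 in GC (adjusted p 0.00704, limma, n = 4 against 4). The *elp2-5* mean was 3.08 ± 1.17 FPKM and the Col-0 mean 16.3 ± 10.2 FPKM (SD, n = 8 each), and the GC ranges overlapped through Col-0 replicate 4. In leaves *ACP5* had at most 0.11 FPKM in *elp2-5* and up to 1.65 FPKM in Col-0, with log2 fold changes of −1.06 ± 0.30 in FT (adjusted p 0.00612) and −1.85 in GC (adjusted p 3.77e-05, limma), and there it had passed the filter only through Col-0. Without Col-0 leaf FT replicate 1 or 4 it was no DEG in FT leaves. Without *elp2-5* leaf GC replicate 4 every remaining *elp2-5* GC leaf library was at 0. It could then not be called in GC leaves, although the adjusted p was 0.000105 (limma).

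AT4G16857 fell in *elp2-5* GC leaves, with a mean of 2.83 FPKM against 13.0 FPKM in Col-0 GC leaves and no overlap (log2 fold change −2.01 ± 0.32, adjusted p 2.90e-05, limma). In FT leaves the log2 fold change was −0.76 ± 0.32 (adjusted p 0.0508), with Col-0 FT replicate 2 at 1.5 FPKM below all *elp2-5* libraries. AT5G45310 fell by less than 2-fold in leaves, and *MUB5* in GC leaves. AT5G45310 had log2 fold changes of −0.64 in FT (adjusted p 0.0028) and −0.53 in GC (adjusted p 0.00987), and *MUB5* had −0.29 in FT (adjusted p 0.168), which did not pass, and −0.44 in GC (adjusted p 0.0375, limma). AT3G46490 in roots was lower in *elp2-5* by less than 2-fold after the pseudocount, with all 8 *elp2-5* libraries at 0.95 FPKM or less and all 8 Col-0 libraries at 1.03 FPKM or more (log2 fold change −0.92 ± 0.21 in FT, adjusted p 0.0016, and −0.87 in GC, adjusted p 0.00253, limma).

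AT5G41765 rose in *elp2-5*. In GC roots its log2 fold change was 1.05 ± 0.16 (adjusted p 2.88e-05), and in FT roots it was 0.90 ± 0.16 (adjusted p 0.000146, limma), just under 2-fold. In leaves it had 0.35 to 1.46 FPKM in *elp2-5* and 0 to 0.29 FPKM in Col-0, with a DEG in GC (1.55 ± 0.20, adjusted p 1.92e-06) and a smaller rise in FT (0.77, adjusted p 0.00249, limma); it had passed the filter in leaves only through 4 *elp2-5* libraries. It was no DEG in GC roots without Col-0 root GC replicate 2, and could not be tested in GC leaves without *elp2-5* leaf GC replicate 3 or 4, since it then missed the filter.

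AT2G13550 and AT2G24945 rose in *elp2-5* leaves and were no DEGs in *elp2-5* roots. AT2G13550 had 7.96, 11.86, 11.22 and 9.06 FPKM in *elp2-5* FT leaves, against 4.92, 4.93, 3.26 and 3.9 FPKM in Col-0 FT leaves, with no overlap and a log2 fold change of 1.15 ± 0.19 (adjusted p 4.62e-05). In GC leaves the log2 fold change was 0.46, under 2-fold, with an adjusted p of 0.0499 (limma). AT2G24945 had 6.46 to 8.28 FPKM in *elp2-5* leaves and 2.45 to 4.49 FPKM in Col-0 leaves, and rose by log2 fold changes of 1.01 ± 0.14 in FT (adjusted p 6.06e-06) and 1.22 in GC (adjusted p 5.94e-07, limma). Its FT value lay so near 2-fold that it was no DEG when either of Col-0 leaf FT replicates 1 and 2 or of *elp2-5* leaf FT replicates 2 and 3 was left out. AT5G39160 rose in GC leaves, with 1.15, 0.6, 2.37 and 1.68 FPKM in *elp2-5* and 0.4, 0, 0 and 0.54 FPKM in Col-0 (log2 fold change 1.40 ± 0.43, adjusted p 0.00919, limma). Without its *elp2-5* libraries, of which 7 reached 1 FPKM, it would have missed the filter in leaves. Whether a member's *elp2-5* response differed between organs was not tested. The members that rose in *elp2-5* leaves were all higher in roots than in leaves of Col-0, by 4.26 times for AT2G13550, 3.94 times for AT2G24945, 10.4 times for AT5G39160 and 30.2 times for AT5G41765. Other members higher in Col-0 roots did not rise there. *GER2* (10.9 times), *ENDO3* (4.65 times), AT5G42280 (3.59 times) and AT1G25141 (2.89 times) were no DEGs in *elp2-5* leaves, and *ACP5* (14.8 times) fell. The 6 root markers summed to 383 to 620 FPKM in *elp2-5* leaves (median 505) and to 192 to 379 FPKM in Col-0 leaves (median 270), and 3 of the 6 were below 0.5 FPKM in every leaf library of each line. Of the 2 root markers that could be tested in leaves, *PYK10* rose in GC by a log2 fold change of 1.17 ± 0.15 (adjusted p 3.37e-06) and *PHT1;1* by 1.05 ± 0.27 (adjusted p 0.00266), and in FT both were higher by less than 2-fold (limma). In roots the sum was 3801 to 4949 FPKM in *elp2-5* and 4868 to 6125 FPKM in Col-0. The part of root-type RNA in these rises was not tested.

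**Figure D5:**
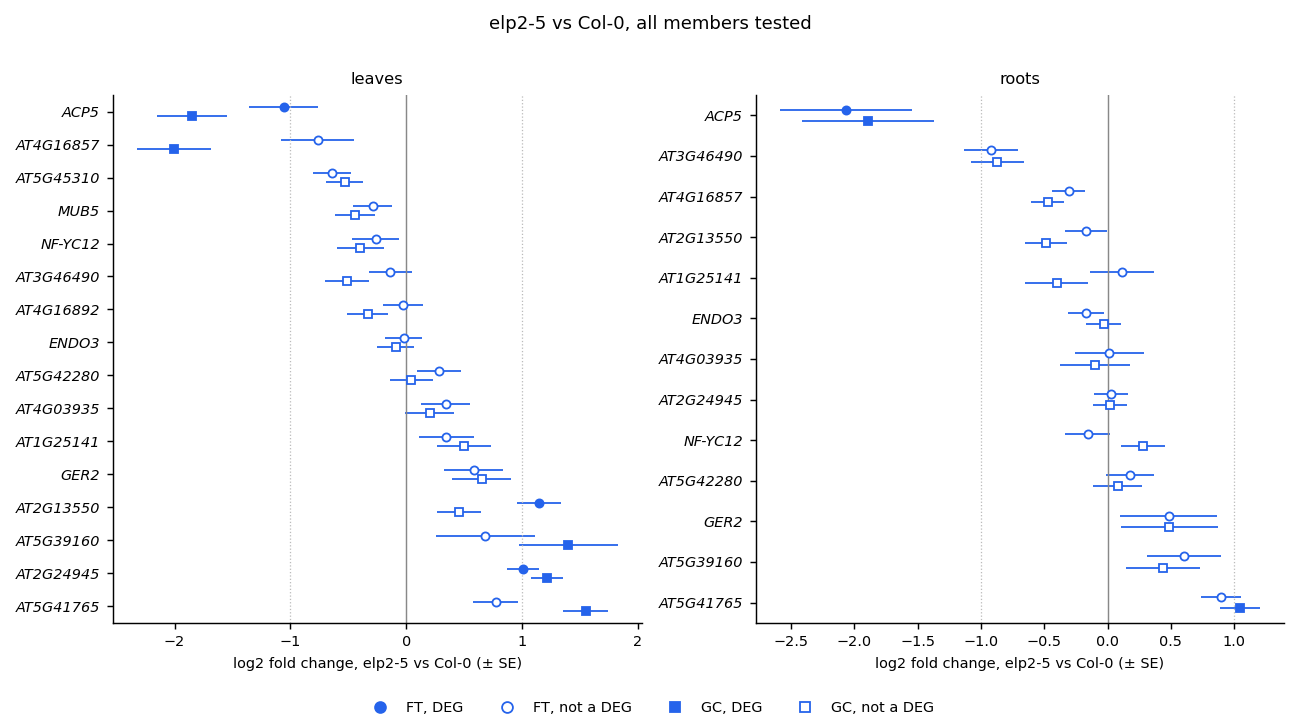
Log2 fold change of *elp2-5* vs Col-0 (x axis, ± SE) of the members tested in leaves (left) and in roots (right), with FT as circles above GC as squares; filled symbols are DEGs and dotted lines mark a 2-fold change. *ACP5* lies lowest in roots, at −2.07 in FT and −1.90 in GC, and AT5G41765 highest, at 0.90 in FT and 1.05 in GC.

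Few members were DEGs between FT and GC, and few of all genes were. The rule took the lowest Col-0 and the highest *met1-7* library over FT and GC together, so it could leave out genes that differ between the environments. For FT vs GC, 1 of 16 members was a DEG in Col-0 leaves, beside 0.247% of all genes. In leaves of *met1-7* and *elp2-5* the counts were 0, beside 0.352% and 0.0402% of all genes, with 1 and 2 members at an unadjusted p under 0.05, beside 28.5% and 14.5% of all genes. In roots the counts were 0 of 13 in *met1-7*, *elp2-5* and Col-0, beside 0.0571%, 0.186% and 0.081% of all genes, with 1, 0 and 2 members at an unadjusted p under 0.05, beside 18.1%, 24.6% and 19.1% of all genes (limma). The DEG was AT4G16857, with 10.23, 1.5, 6.7 and 7.55 FPKM in Col-0 FT leaves against 11.94, 13.98, 9.9 and 16.29 FPKM in Col-0 GC leaves, a log2 fold change of −1.17 ± 0.32 and an adjusted p of 0.0219 (limma, n = 4 against 4). The ranges overlapped at 10.23 and 9.9 FPKM, and without Col-0 leaf FT replicate 2 the log2 fold change was −0.64 and the gene no DEG. Without Col-0 leaf GC replicate 2 it was −1.13, with an adjusted p of 0.0531.

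Smaller differences between FT and GC did not pass the adjusted threshold. AT5G39160 in Col-0 leaves had 0.64, 2.15, 1.1 and 0.82 FPKM in FT and 0.4, 0, 0 and 0.54 FPKM in GC, with no overlap, a log2 fold change of 1.19 ± 0.43 and an adjusted p of 0.0704 (limma). *ACP5* in Col-0 leaves had a log2 fold change of −0.73 ± 0.30 (adjusted p 0.115), and *NF-YC12* in Col-0 roots 0.43 ± 0.18 (adjusted p 0.189, limma). *MUB5* was higher in every FT than in every GC library of *elp2-5* leaves and of Col-0 leaves, and in *met1-7* leaves its log2 fold change was 0.46 ± 0.17 (adjusted p 0.0841, limma). AT2G13550 had a log2 fold change of 0.55 ± 0.19 in *elp2-5* leaves (adjusted p 0.174) and −0.54 ± 0.17 in *met1-7* roots (adjusted p 0.102, limma). In *elp2-5* roots the values ran from −0.71 for *ACP5* to 0.26 for AT1G25141. The members' median for FT vs GC was 0.06 in *met1-7*, 0.10 in *elp2-5* and 0.03 in Col-0 leaves, beside 0.07, 0.03 and 0.05 over all genes, and −0.03, 0.03 and 0.01 in the same order in roots, beside 0.04, 0.01 and 0.04.

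Because the rule required a low level in *met1-7* in both environments, the difference in flight response between *met1-7* and Col-0 was examined only for members not taken in the organ. As DEGs it counted 0 of 8 members in leaves and 0 of 3 in roots, beside 0% of all genes in each organ, and 0 members had an unadjusted p under 0.05, beside 10.5% of all genes in leaves and 6.34% in roots (limma interaction). The differences ran from −1.15 for AT5G39160 to 0.48 for *ACP5* in leaves, and from −0.42 for AT2G13550 to 0.05 for AT4G16857 in roots.

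Genes of the methylation machinery were examined as counts from lists of known genes. None of the 16 members is in them. For *met1-7* vs Col-0 the DEGs among 12 genes of CG and non-CG maintenance, 16 of RNA-directed DNA methylation and 9 of active demethylation were limited to *ROS1*, the glycosylase that removes methylated cytosine, which was left out of the members by name. *ROS1* fell in FT leaves, with 11.8 FPKM in *met1-7* against 23.3 FPKM in Col-0 (log2 fold change −1.08 ± 0.22, adjusted p 0.00372), and in FT roots, with 5.30 FPKM in *met1-7* against 12.8 FPKM in Col-0 (−1.26 ± 0.20, adjusted p 0.000272, limma). In GC its fall was under 2-fold in both organs. Over all genes, DEGs lower and higher were 0.453% and 0.639% in FT and 0.81% and 0.659% in GC leaves. In roots they were 0.352% and 0.571% in FT and 0.61% and 0.533% in GC. At an unadjusted p under 0.05 in FT and GC leaves were 6 and 5 maintenance genes, beside 22.0% and 29.9% of all genes. Those of RNA-directed DNA methylation were 4 and 3, and of demethylation 4 and 5. In roots the numbers were 6 and 4, 4 and 5, and 5 and 2, beside 18.9% and 21.7% (limma). For *elp2-5* vs Col-0 the count of DEGs in the 3 lists was 0 in every organ and environment (limma). At an unadjusted p under 0.05 stood 6 of 12 maintenance genes in FT leaves and 8 in GC leaves, 13 and 12 of 16 genes of RNA-directed DNA methylation, and 5 and 6 of 9 of demethylation, beside 56.2% of all genes in FT and 57.1% in GC. In roots the counts were 3 in FT and 4 in GC, 8 and 4, and 2 and 3, beside 45.3% and 46.9% of all genes. Those of RNA-directed DNA methylation that passed an adjusted p of 0.05 in leaves, 13 in FT and 11 in GC, were all higher in *elp2-5*, by less than 2-fold. Of the maintenance genes, 6 in FT and 7 in GC were higher at that threshold and 0 lower. Of the demethylation genes, 5 were higher in each environment, with 0 lower in FT and 1 in GC. Of all 19877 genes tested in leaves, 10020 in FT and 10263 in GC passed it in either direction (limma).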

How the data were processed

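Gene-level RNA-seq values of 48 libraries were used, with 24 leaf and 24 root libraries in separate tables, and the labels gave the groups. The authors deposited FPKM. They trimmed reads with Trimmomatic, checked them with FastQC, aligned them with STAR to TAIR10 and quantified genes with RSEM; versions are not given in the sources used here. The authors' tests with edgeR were not used. Of 32833 locus tags, 32548 matched the RefSeq annotation of TAIR10.1, from which symbols, coordinates and sequences were taken. FPKM hold no counts. Relative depth, estimated from genes of low level, was 0.84 to 1.19 over the leaf libraries (144 genes) and 0.86 to 1.16 over the root libraries (158 genes).

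Genes that reached 1 FPKM in 4 or more of an organ's 24 libraries entered a limma fit (version 3.58.1, R 4.3.3) of log2(FPKM + 0.5) (means of the 6 groups, eBayes with trend and robust settings), and two-sided p-values were adjusted by Benjamini-Hochberg within each comparison. A fold change on this scale understates that of genes of low level. The fit was tested on simulated data. Replicates were separate samples by the labels, and p-values measure the spread between them. By the study's methods all FT plates came from a single flight and all GC plates from a single ground run. The p-values of FT vs GC therefore do not measure the spread between flights. Near-identical transcripts (at least 95% identity over 80% of the shorter) were found with BLAST 2.17.0. Other steps ran in Python 3.11.15 (pandas 2.3.3, numpy 2.4.6, matplotlib 3.10.9 and scipy 1.17.1).

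The members, the gene lists and the tests were chosen with earlier results of these data known. Named by rule were the members taken in both organs, in each organ the 6 with the largest ratio of lowest Col-0 to highest *met1-7* library, the 5 with the highest Col-0 mean and the 2 genes on each side of the threshold, up to 3 with the largest fall and rise in *elp2-5*, those called in flight, neighbouring members and near-identical pairs. The other members, neighbours and relatives were named after their values were seen. Replicate numbers were checked for pairing by the correlation of deviations from group means between samples with the same number, whose median was −0.01 in leaves and 0.0024 in roots, and the samples were treated as unpaired. The alternatives were other thresholds of the rule, pseudocounts of 0.1 and 1 FPKM, no filter, quantile normalization, median-ratio scaling, a block for the replicate number, only the libraries compared, no condition on values above 0, members with near-identical transcripts left out, and each library left out in turn.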

Additional observations from a re-analysis of the deposited data

Results flagged for a closer look

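In 107 groups of 4 libraries, 7 members' values stood far from the rest of their group, where chance flags about 1 group in 20. Col-0 root GC replicate 4 gave 3 of them: *ACP5* at 2.91 FPKM, with the next library at 25.17 FPKM, AT5G39160 at 17.97 FPKM, with the next at 6.69 FPKM, and *GER2* at 33.68 FPKM, with the next at 18.58 FPKM. In *elp2-5* leaves, AT4G03935 reached 11.29 FPKM in a GC library, with the next at 7.65 FPKM. AT4G16857 reached 4.16 FPKM in *elp2-5* FT leaves, with the next at 2.77 FPKM, and 3.48 FPKM in *elp2-5* GC leaves, with the next at 2.65 FPKM. AT1G25141 had 0.09 FPKM in a *met1-7* FT root library and was listed at 0 in the other 3. Causes were not tested.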

How the results depend on the processing

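The number of members depended on the rule. At a lowest Col-0 value of 2 FPKM 5 genes were taken in leaves. At a ratio of 1.5 they were 34 (20 in leaves, 19 in roots), and at a ratio of 3 they were 7 (2 in leaves, 5 in roots). Leaving out 1 library at a time gave 16 to 29 members in all, 8 to 21 of them in leaves and 10 to 17 in roots. The highest counts came without Col-0 leaf FT replicate 2 (21 in leaves) and without Col-0 root GC replicate 4 (17 in roots).

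For *met1-7* vs Col-0, the genes taken only in roots that fell in FT leaves were 2, with 4 at a pseudocount of 0.1 FPKM, 1 at 1 FPKM, 0 when only the libraries compared were fitted, 0 without members that have a near-identical transcript, and 2 to 3 with a library left out. In GC leaves they were 4, with 1 at a pseudocount of 1 FPKM, 1 in the libraries compared alone, 2 without near-identical transcripts, and 3 to 4 with a library left out.

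For *elp2-5* vs Col-0 in FT leaves, the 1 member that fell became 0 at a pseudocount of 1 FPKM and 0 in the libraries compared alone, and 0 to 2 with a library left out. The 2 that rose became 1 at a pseudocount of 1 FPKM, 1 with median-ratio scaling, 0 with quantile normalization, 1 without near-identical transcripts, and 1 to 2 with a library left out. In GC leaves, the 2 that fell were 1 to 2 with a library left out, and the 3 that rose became 1 in the libraries compared alone and 1 without near-identical transcripts (2 to 3 with a library left out). In roots, the member that fell in FT became 2 at a pseudocount of 0.1 FPKM, and the one in GC became 2 at 0.1 FPKM, 0 in the libraries compared alone and 1 to 2 with a library left out. The 1 that rose in GC roots became 0 at a pseudocount of 1 FPKM, and 0 to 1 with a library left out.

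For FT vs GC, the count in *met1-7* leaves was 0, and 1 at a pseudocount of 0.1 FPKM. In Col-0 leaves it was 1, with 0 in the libraries compared alone and 0 to 2 with a library left out. Adding the replicate number as a block changed none of 20 counts, and all 22 called members stayed called; the numbers do not pair the samples. No result reversed under the alternatives run. Causes of these changes were not tested. Low FPKM in *met1-7*, often at 0, and unknown depth limit what a fold change means for the members, and the organs and comparisons share plates and Col-0 libraries.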
